A study of Mus musculus with 10 samples.

Results

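Short-term cultured pro-B cells heterozygous for both Ebf1 and Pax5 (dHet) were compared with wild-type pro-B cells sorted from bone marrow. These 2 groups make up 4 of the 10 arrays of the study, with 2 arrays each. The labels give the dHet pro-B group the genotype Ebf1+/- Pax5+/- Rag2-/-. Its cells grew from c-Kit positive fetal liver cells plated on a layer of OP9 stromal feeder cells. The medium was OptiMEM with 4% FCS, interleukin 7 (IL-7) at 5 ng/ml, Flt3 ligand at 10 ng/ml and stem cell factor (SCF) at 10 ng/ml. The wt pro-B group, labelled Ebf1+/+ Pax5+/+, was Fraction BC of the bone marrow of control mice, taken directly by sorting. The labels give no age, and state a Rag2 genotype for the dHet group alone. The groups thus differed in the dose of Ebf1 and Pax5, in Rag2 as far as labelled, in tissue of origin and in culture, and the effects of these 4 cannot be told apart in this comparison.

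EBF1 and PAX5 are transcription factors that commit lymphoid progenitors to the B lineage. EBF1 opens the B cell programme and PAX5 maintains it, activating genes of B cell receptor signalling and silencing genes of other lineages. A pro-B cell rearranges its immunoglobulin heavy chain genes with the RAG1 and RAG2 recombinase, displays a pre-B cell receptor once a heavy chain is made, and divides under the influence of IL-7. The loss of 1 copy of each gene is known to predispose mice to B cell leukemia, and the labels describe these cultured cells as derived from mice before leukemia.

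All 4 arrays lay on 1 slide and were scanned together. The share of probes well above background was 48.6% and 49.1% on the dHet arrays and 51.3% and 52.4% on the wt arrays, and no spot was saturated. Over the genes tested, 1 probe each, the correlation was 0.993 between the dHet arrays, 0.994 between the wt arrays and 0.875 to 0.880 across groups. A level is given as log2 relative to the 75th percentile of its array, so a level of 0 is that percentile. The 2 dHet arrays differed in sex-linked transcripts. Xist, the RNA that silences an X chromosome in female cells, was at 5.17 on dHet array 2 and not well above background on the other 3 arrays. Ddx3y and Eif2s3y, both Y-linked, were at 1.56 and 2.42 on dHet array 1 and not well above background on dHet array 2. Ddx3y was also well above background on both wt arrays, at 1.68 and 1.73. The 2 dHet arrays therefore did not hold the same RNA. Nothing in the labels says whether the arrays of a group came from separate animals or cultures, so the p-values measure the spread between these arrays alone.

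The sequences shown first belong to gene groups described further on, 2 MHC class II genes that were lower in dHet pro-B cells and 2 cholesterol synthesis genes that were higher, together with Asns, the asparagine synthetase. Each run holds 300 bases, 250 before and 50 after the gene's start, from RefSeq on GRCm38.p6, written along the gene's strand. For H2-Aa (chr17:34287774-34288073, minus strand) and H2-Eb1 (chr17:34305617-34305916, plus strand) the capitals mark a Y box, searched as CTGATTGG on both strands, whose first base lay at -51 and -62 from the start. The Y box contains CCAAT on the opposite strand.
H2-Aa: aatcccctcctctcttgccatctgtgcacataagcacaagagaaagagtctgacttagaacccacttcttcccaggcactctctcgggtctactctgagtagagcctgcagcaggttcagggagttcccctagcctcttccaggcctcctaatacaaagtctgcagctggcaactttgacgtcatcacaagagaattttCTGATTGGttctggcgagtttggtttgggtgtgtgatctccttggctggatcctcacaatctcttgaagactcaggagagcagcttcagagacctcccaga
H2-Eb1: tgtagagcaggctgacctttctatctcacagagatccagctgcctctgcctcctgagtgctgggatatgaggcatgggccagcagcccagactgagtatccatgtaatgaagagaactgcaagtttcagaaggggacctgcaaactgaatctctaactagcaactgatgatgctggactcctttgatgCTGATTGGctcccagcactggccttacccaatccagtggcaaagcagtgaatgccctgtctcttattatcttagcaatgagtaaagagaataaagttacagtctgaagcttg

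For Hmgcs1 (chr13:119690101-119690400, plus strand) and Idi1 (chr13:8885356-8885655, plus strand) the capitals mark ATTGG, which is CCAAT on the opposite strand, and in Hmgcs1 also TCACCCCAC, a match to the sterol regulatory element searched as TCACNCCAC. For Asns (chr6:7693160-7693459, minus strand) they mark TGATGAAAC at -23, a match to the amino acid response element searched as TGATGNAAN.
Hmgcs1: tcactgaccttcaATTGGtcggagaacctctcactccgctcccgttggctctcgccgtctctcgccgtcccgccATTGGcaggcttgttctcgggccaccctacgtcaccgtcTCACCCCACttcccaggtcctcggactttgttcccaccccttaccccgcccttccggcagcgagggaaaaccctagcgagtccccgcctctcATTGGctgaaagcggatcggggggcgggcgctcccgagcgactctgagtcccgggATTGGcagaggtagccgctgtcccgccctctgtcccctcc
Idi1: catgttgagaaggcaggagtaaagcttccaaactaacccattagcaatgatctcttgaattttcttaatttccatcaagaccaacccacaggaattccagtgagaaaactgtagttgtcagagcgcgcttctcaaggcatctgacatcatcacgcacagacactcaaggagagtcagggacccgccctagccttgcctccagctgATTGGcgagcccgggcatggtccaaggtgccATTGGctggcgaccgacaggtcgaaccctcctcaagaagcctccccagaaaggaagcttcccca
Asns: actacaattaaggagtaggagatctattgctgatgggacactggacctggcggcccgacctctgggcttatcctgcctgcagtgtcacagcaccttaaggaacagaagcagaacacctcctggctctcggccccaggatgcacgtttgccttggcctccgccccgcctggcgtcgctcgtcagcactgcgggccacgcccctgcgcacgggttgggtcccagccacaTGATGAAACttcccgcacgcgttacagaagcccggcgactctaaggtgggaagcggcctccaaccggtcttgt

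Of the genes tested, 9434 had such a promoter entry. CCAAT on either strand was present in 43.3% of them, the Y box in 6.78%, the sterol regulatory element in 1.43% and the amino acid response element in 2.76%. CCAAT was present in 19 of 20 cholesterol genes with an entry, in 7 of 7 MHC class II genes and in 37 of 47 cell cycle genes. The Y box was present in 3 of the 7 MHC class II genes, in 7 of the 20 cholesterol genes and in 10 of 29 amino acid response genes. The sterol regulatory element was present in 1 of the 20 cholesterol genes, and the amino acid response element in 8 of the 29 genes of its list. Genes at least 2-fold higher in dHet pro-B cells held CCAAT in 43.1% of promoters and genes at least 2-fold lower in 43.5%, both close to the share among all genes tested. A match describes letters in this window and is not evidence of binding.

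A total of 13965 genes were tested, each by its brightest probe, and 5064 (36.3%) were higher and 3822 (27.4%) lower in dHet pro-B cells at a limma adjusted p under 0.05. At least 2-fold changes numbered 1869 upward (13.4%) and 2328 downward (16.7%). By signal as read, also where it was not well above background, 308 genes fell at least 16-fold and 87 rose that far. Where the lower group was not well above background, such a fold depends on background signal and is known only as a bound. The decreases included 1045 genes that were well above background on no dHet array, and the increases 319 genes that were so on no wt array. Such genes entered the test only through the group where they were high, so they add no support to the count of a list. The median change over all genes was 0.13 on the log2 scale, and it moved to 0.49 when arrays were scaled on their median and to -0.06 when they were scaled on probes detected on all 4 arrays. Higher genes made up 57.0% of the calls, against 74.1% and 44.3% under those 2 scalings, so changes of list members are read against the median of all genes. Counts of list members are likewise read against the shares of all genes, 36.3% higher and 27.4% lower. Without dHet array 2, the array with Xist, 4344 genes were higher and 3395 lower.

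**Figure D1:**
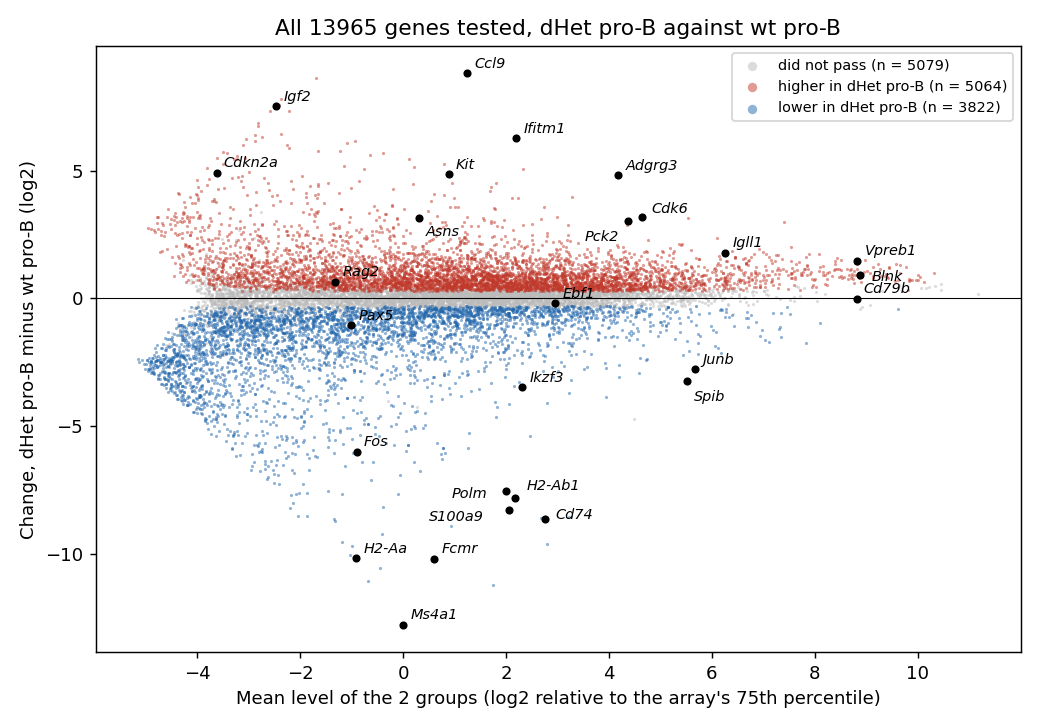
Change between groups (vertical axis, log2, dHet pro-B minus wt pro-B) against the mean level of both groups (horizontal axis, log2 relative to the array's 75th percentile), 1 point per gene tested. Red marks the 5064 genes higher and blue the 3822 lower in dHet pro-B cells, grey the 5079 that did not pass, and black points with names are genes described in the text.

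The genes altered in the genotype were examined first. Ebf1 was measured at 2.84 and 2.89 on the dHet arrays and at 3.11 and 2.99 on the wt arrays by its brightest probe (chr11:44818365-44818424, mm9). The arrays of the groups did not overlap, and the change of -0.18 ± 0.10 (SE, 2 arrays per group; 95% interval -0.45 to 0.08) did not pass (adjusted p = 0.173). It was lower and passed with the deposited values (-0.30), quantile normalization (-0.40) and scaling on detected probes (-0.37). A second Ebf1 probe, annotated to a RIKEN clone of the locus (chr11:44462618-44462677, mm9), read -0.49 and -0.11 in dHet cells and 3.19 and 3.0 in wt cells. Probe by probe, this change of -3.39 ± 0.17 passed (adjusted p = 0.000237). The place of this probe relative to the exons of Ebf1 was not worked out here, so whether it reads the Ebf1 mRNA is not known.

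Pax5 was at -1.40 and -1.67 on the dHet arrays and at -0.30 and -0.67 on the wt arrays. Both dHet values lay below both wt values, a change of -1.05 ± 0.18 (adjusted p = 0.00692), or 2.07-fold lower. With all 10 arrays of the study in 1 fit, the same difference of Pax5 had an adjusted p of 0.391. Rag2, labelled -/- in the dHet group, was at -0.98 and -1.0 against -1.60 and -1.69, an increase of 0.66 ± 0.10 (adjusted p = 0.00445). How much of Rag2 the allele removes is not given in the sources used here, so this probe (chr2:101472445-101472504, mm9) does not check the label.

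Pro-B markers were expressed in both groups, with changes in both directions and no call for the B cell receptor chains Cd79b and Cd79a. Cd79b, a signalling chain of the B cell receptor, was at 8.92 and 8.69 in dHet and 8.87 and 8.77 in wt cells, with overlapping arrays and a change of -0.01 (95% interval -0.34 to 0.32). Its partner Cd79a did not pass either, with a change of 0.06 (95% interval -0.30 to 0.43). Of 15 pro-B markers, all measured on all 4 arrays, 5 were higher, 3 lower and 7 did not pass. Among all genes 36.3% were higher and 27.4% lower. Changes of the markers ran from -1.52 (Ly6d) to 1.80 (Igll1). Their median of -0.01 changed sign with the array left out (-0.12 to 0.10).

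The surrogate light chain of the pre-B cell receptor was higher in dHet pro-B cells. Igll1, which encodes its lambda5 part, was at 7.21 and 7.11 on the dHet arrays and at 5.38 and 5.34 on the wt arrays. The arrays were apart without overlap, and the change was 1.80 ± 0.10 (adjusted p = 0.000326), or 3.48-fold. Vpreb1, its other part, was at 9.70 and 9.43 against 7.92 and 8.26, or 2.78-fold higher (1.47 ± 0.17, adjusted p = 0.00222). Vpreb1 and Vpreb2 (1.72 ± 0.12) are near-identical in sequence, so signal from one cannot be assigned against the other. Btk, a kinase downstream of the receptor, rose by 1.14 ± 0.11, while the SRC family kinases Blk (-1.59 ± 0.13) and Lyn (-0.97 ± 0.11) were lower. The adaptor Blnk was 0.91 ± 0.11 higher (adjusted p = 0.00265), but at 0.05 with quantile normalization and -0.073 with the deposited values, where it did not pass.

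Genes of V(D)J recombination did not move together. Rag1 was at 5.66 and 5.35 in dHet and 5.33 and 5.08 in wt cells, with a change of 0.30 ± 0.16 that did not pass (adjusted p = 0.163). Polm, a DNA polymerase that joins broken ends, was at -1.58 and -1.98 in dHet and at 5.84 and 5.70 in wt cells. It was among the largest decreases of the comparison, 187-fold lower (-7.55 ± 0.17, adjusted p = 6.86e-05). Poll, the related polymerase lambda, was 3.25-fold higher (1.70 ± 0.11). Dntt, the terminal transferase that adds bases at heavy chain joints, was at 6.71 and 6.08 against 7.34 and 7.33, a change of -0.94 ± 0.23 (adjusted p = 0.0219). Dntt did not pass without wt array 1 (adjusted p = 0.101) or wt array 2 (0.0988), nor with array median scaling (0.0577). Of 26 genes listed for the pre-B receptor and recombination, 11 were higher and 7 lower, against 36.3% and 27.4% of all genes. The list median of 0.24 became -0.01 with the deposited values.

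B lymphoid transcription factors split in both directions. Ikzf3, which encodes Aiolos, was at 0.38 and 0.78 on the dHet arrays and at 4.04 and 4.07 on the wt arrays, 11.1-fold lower (-3.47 ± 0.16, adjusted p = 0.000224). Spib, an ETS factor of B cells and plasmacytoid dendritic cells, was at 3.81 and 4.00 against 7.18 and 7.08, 9.35-fold lower (-3.23 ± 0.12, adjusted p = 0.000135). Ikzf1, which encodes Ikaros, was at 2.22 and 2.33 against 4.37 and 4.49, 4.47-fold lower (-2.16 ± 0.10, adjusted p = 0.000246). Neither group's arrays overlapped the other's for these 3 factors. Irf8 (-2.34 ± 0.10) and Irf4 (-1.73 ± 0.19), which drive light chain rearrangement and later maturation, were lower as well, as was Tcf3 (-0.71 ± 0.12), which encodes E2A. Erg, an ETS factor of stem and pro-B cells, went the other way, with 5.99 and 5.82 in dHet and 3.52 and 3.69 in wt cells, 4.94-fold higher (2.30 ± 0.12, adjusted p = 0.000299). Lef1 was 3.20-fold higher by its brightest probe (1.68 ± 0.10) and higher by a further probe (1.82), but another, dimmer Lef1 probe was lower (-0.94). Foxo1 (0.06), Spi1 (0.17) and Myb (0.31, adjusted p = 0.0514) did not pass. Of 29 factors measured, 8 were higher and 9 lower, against 36.3% and 27.4% of all genes. Their median of -0.04 turned to 0.32 under array median scaling.

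Among 35 genes described as activated by EBF1 and PAX5, 8 were higher and 19 lower, against 36.3% and 27.4% of all genes. Of these 19, 3 were well above background on no dHet array and add no support to the count. The median of -0.51 was -0.16 under array median scaling, with 11 higher and 16 lower, and -0.92 with quantile normalization. The higher members included Igll1 and Lck, a SRC family kinase best known from T cells, at 2.95 and 3.21 against 1.05 and 1.16 (1.98 ± 0.13, adjusted p = 0.000502). The lower members included Fcrla, an intracellular Fc receptor homologue, at 2.21 and 1.84 against 5.98 and 5.76 (-3.85 ± 0.17, adjusted p = 0.000197). Cd72 (-2.41 ± 0.10) and Cd22 (-2.01 ± 0.16), both inhibitory receptors, and Ptpn6 (-1.85 ± 0.10), the phosphatase SHP-1 that they recruit, were also lower.

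**Figure D2:**
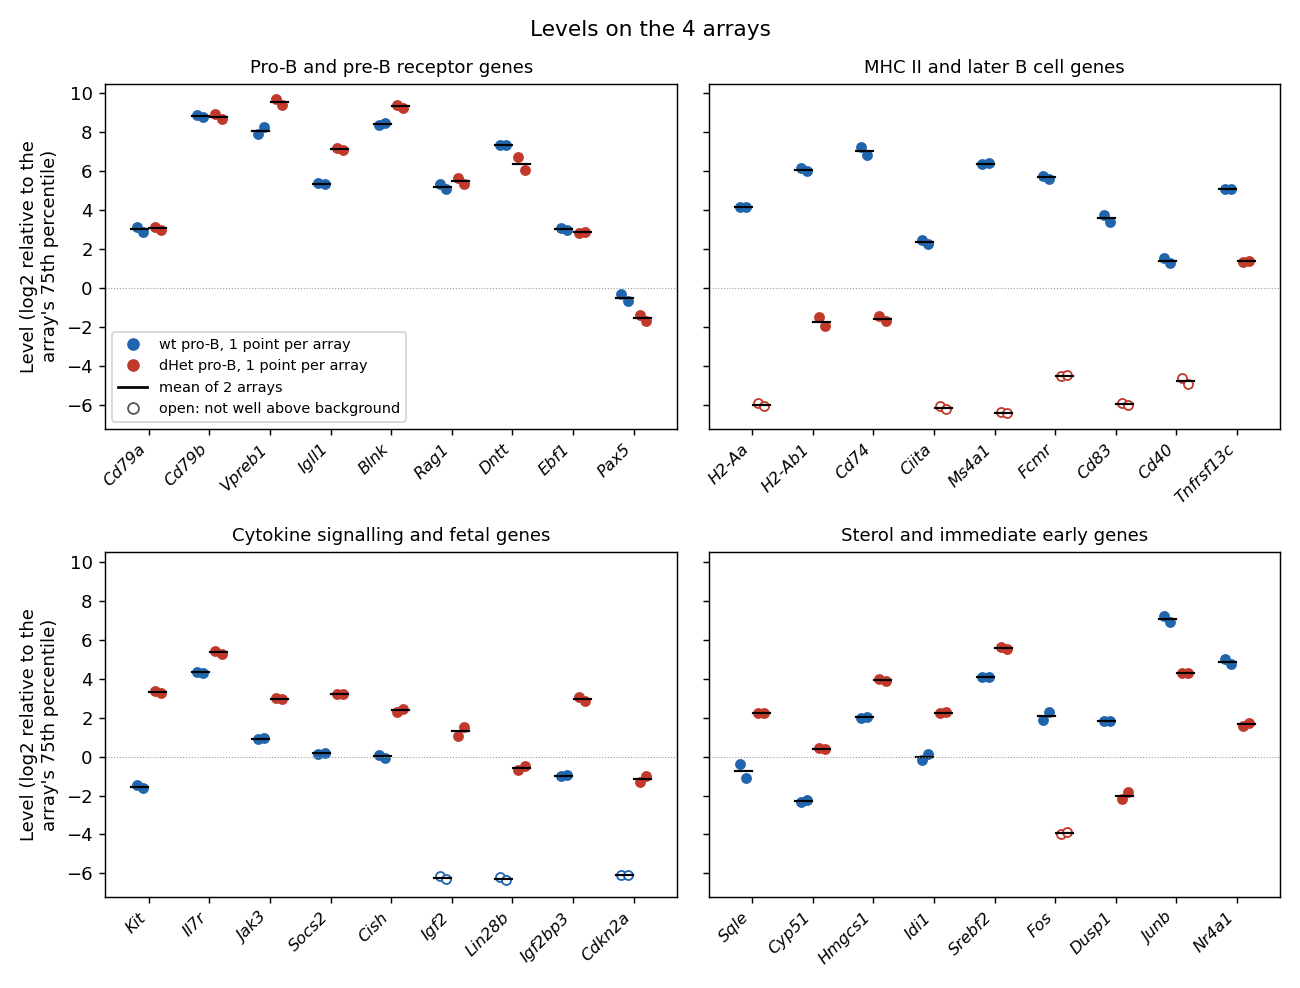
Levels of genes described in the text on each of the 4 arrays (vertical axis, log2 relative to the array's 75th percentile), with wt arrays in blue, dHet arrays in red, bars at the mean of 2 arrays and open circles where the spot was not well above background. Cd79b lies at like levels in both groups, H2-Aa, Ciita and Ms4a1 are not well above background in dHet cells, and Igf2, Lin28b and Cdkn2a are above background in dHet cells only.

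The MHC class II genes, which present peptides to helper T cells, were lower throughout. All 10 measured members were lower, against 27.4% of all genes, with a median change of -6.83. This median was -6.15 with undetected genes at their bounds, -4.47 with normexp background correction and -4.82 with the deposited values. Of the 10 members, 4 were well above background on no dHet array. These 4 entered the test through the wt arrays alone and add no support to the count. Ciita, the master activator of the class, was at -6.06 and -6.21 on the dHet arrays, not well above background, and at 2.48 and 2.28 on the wt arrays, at least 86.6-fold lower (adjusted p = 5.51e-05). H2-Aa, a class II alpha chain, was at -5.91 and -6.08 against 4.18 and 4.17, at least 301-fold lower (adjusted p = 3.93e-05), and H2-Eb1 was at least 241-fold lower. Cd74, the invariant chain, remained above background at -1.43 and -1.70 against 7.26 and 6.86, 394-fold lower (-8.62 ± 0.18, adjusted p = 6.59e-05). H2-Ab1 was at -1.48 and -1.96 against 6.15 and 6.01, 223-fold lower, and its 3 other probes changed by -6.83 to -7.48. The peptide loading genes H2-DMb1 (-5.86 ± 0.21) and H2-DMa (-5.01 ± 0.14) followed. The 2 smallest changes were those of H2-Ob (-0.59) and H2-Oa (-0.36), which encode the loading inhibitor DO, and array median scaling left 8 members lower. Class I genes changed less, with 5 of 14 lower and 2 higher. H2-K1 was 2.31-fold lower (-1.21 ± 0.11) and B2m did not pass (-0.21). The class I median of -0.23 became 0.12 under array median scaling.

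Genes of later B cell stages were also mostly lower. Of 22 measured, 19 were lower and 2 higher, against 27.4% and 36.3% of all genes. Of the lower genes, 10 were well above background on no dHet array. These 10 entered the test through the wt arrays alone and add no support to the count. Ms4a1, which encodes CD20, was at -6.36 and -6.42 in dHet and 6.37 and 6.41 in wt cells, at least 1392-fold lower (adjusted p = 3.42e-05). Fcmr, the IgM Fc receptor, was at -4.53 and -4.46 against 5.78 and 5.62, at least 861-fold lower. Cd83 (at least 199-fold), Cd40 (at least 44.4-fold) and Fcer2a, the low affinity IgE receptor CD23 (at least 38.7-fold), also lay below background on both dHet arrays. Tnfrsf13c, the BAFF receptor, was measured on all arrays, at 1.33 and 1.41 against 5.09 and 5.09, 13.2-fold lower (-3.72 ± 0.09, adjusted p = 8.14e-05). The list median was -2.19, or -2.05 with undetected genes at their bounds. In bulk samples fewer cells of a type and less RNA per cell cannot be told apart, and this holds for every level given here.

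Markers of other cell types moved with these decreases. Of 19 myeloid markers measured, 13 were lower and 2 higher, against 27.4% and 36.3% of all genes. Of the lower markers, 8 were well above background on no dHet array. These 8 entered the test through the wt arrays alone and add no support to the count. The median of the 19 markers, -3.75, was -2.37 with undetected genes at their bounds, -0.84 with normexp background correction and -0.74 with the deposited values. Their summed linear level, in multiples of the 75th percentile, was 59.2 and 62.3 on the dHet arrays and 115.6 and 196.3 on the wt arrays, and all 19 measured members were well above background on the wt arrays. S100a9, a granulocyte protein, was at -1.39 and -2.80 in dHet and 5.64 and 6.75 in wt cells, 313-fold lower (-8.29 ± 0.60, adjusted p = 0.00065). Camp, Ltf, Ngp and Mpo, granule genes, were well above background on no dHet array, whereas Lyz2 did not pass (0.31) and Fcgr3, an Fc gamma receptor, was higher. Of 11 dendritic and plasmacytoid markers measured, 7 were lower and 2 higher, with a summed level of 125.7 and 139.1 against 378.4 and 343.6. Of these 7, 4 were well above background on no dHet array. These 4 entered the test through the wt arrays alone and add no support to the count. The list shares Ly6d with the pro-B markers and Irf8 and Tcf4 with the B lymphoid factors. Its sum therefore does not measure dendritic cells alone. The higher members were Ccr9 (0.88) and Tcf4 (0.41). Siglech and Itgax, which define plasmacytoid and conventional dendritic cells, were well above background on no dHet array. The part of these cells in the MHC class II, later B cell and Spib or Irf8 results was not tested.

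Other lineage markers were low in both groups or mixed. Their counts stand against 36.3% higher and 27.4% lower among all genes. Of the lower markers, 5 erythroid, 2 T cell, 2 stromal, 2 hepatocyte and 1 endothelial were well above background on no dHet array. These entered the test through the wt arrays alone and add no support to the counts. The T cell list had 3 higher and 2 lower of 9 measured, with summed levels of 5.8 and 8.3 against 3.9 and 4.2, and Cd4 and Cd3g were well above background on no array. Of 5 NK markers measured, 2 were higher and 1 lower, with sums of 19.8 and 17.8 against 3.2 and 4.0, carried by Klrd1, an NK receptor chain, at 4.14 and 4.02 against 0.00 and 0.26 (3.95 ± 0.13, adjusted p = 0.000112). Erythroid markers were lower for 6 and higher for 1 of 9, with sums of 11.8 and 12.9 against 12 and 14.5. Plasma cell markers were lower for 7 and higher for 2 of 10, although Mzb1 (1.32 ± 0.13) took their summed level to 403 and 360 against 188 and 201. For the OP9 feeder layer, 9 of 23 stromal markers were measured, 3 higher and 2 lower, with sums of 32.0 and 31.6 against 29.9 and 35.4. Col1a1, Col3a1, Cxcl12, Dcn and Pdgfrb, which define stromal cells, were well above background on no dHet array. Of these, only Col3a1 was so on a wt array. The higher members were Thy1 (2.06), Bgn (1.14), well above background on no wt array, and Col5a1 (0.64). Bgn and Col5a1 did not pass with normexp background correction. The part of feeder cells in the dHet samples was not tested. Fetal hepatocyte markers were lower for 3 of 3 measured, with sums of 0.468 and 0.409 against 1.45 and 1.44. Afp was well above background on no dHet array, and Alb was so on no array of either group. Endothelial markers were higher for 4 and lower for 1 of 6, with sums of 19.6 and 20.7 against 6.8 and 7.5. Kdr, a VEGF receptor, rose by 3.30 ± 0.21. Cdh5 was well above background on no dHet array, and Tek, Tie1 and Vwf were so on no array of either group. Of 14 mast cell genes only Hdc was measured, and it was lower (-1.98).

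**Figure D3:**
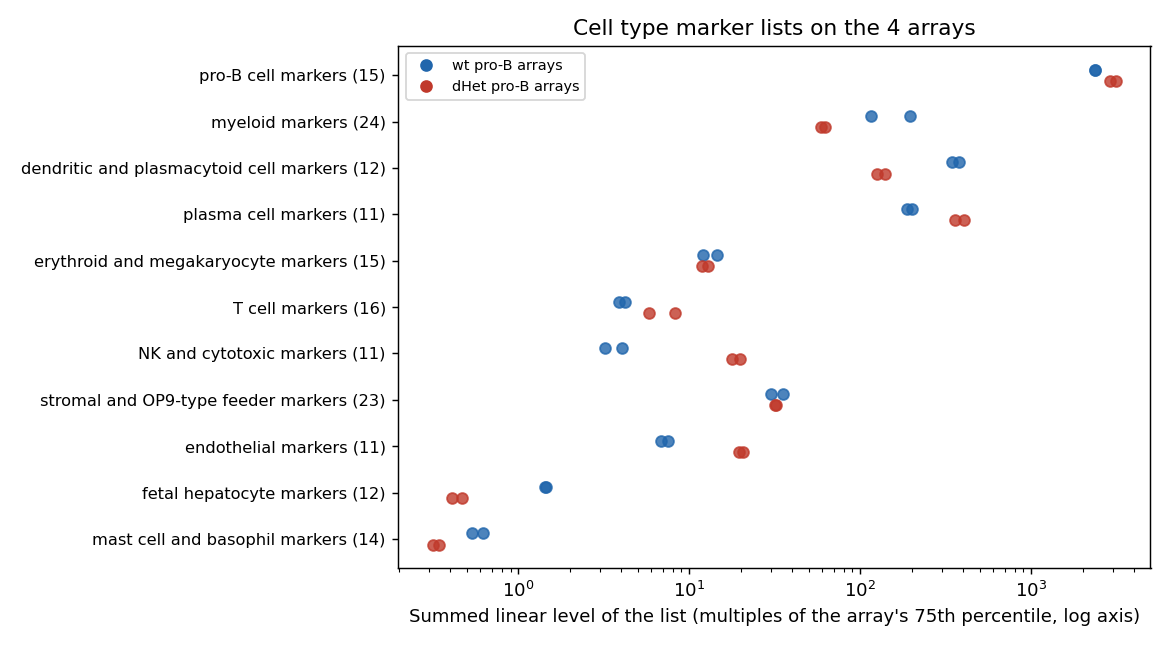
Summed linear level of each marker list on each array (horizontal log axis, multiples of the array's 75th percentile), wt arrays in blue and dHet arrays in red, with the number of genes on the array in brackets. Pro-B markers sum to 2361 or more on every array, while myeloid and dendritic sums are lower and NK and endothelial sums higher on both dHet arrays.

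Immediate early genes, which cells induce rapidly after a stimulus and also during dissociation and sorting, were lower almost throughout. Of 31 measured, 29 were lower, against 27.4% of all genes, with a median of -1.69. The 2 others, Socs3 (-0.39) and Csrnp1 (0.43), did not pass. Of the lower genes, 6 were well above background on no dHet array. These 6 entered the test through the wt arrays alone and add no support to the count. Fos, a subunit of AP-1, was at -3.96 and -3.85 on the dHet arrays, not well above background, and at 1.90 and 2.28 on the wt arrays, at least 63.8-fold lower (adjusted p = 8.31e-05). Junb, its partner, was at 4.28 and 4.31 against 7.21 and 6.93, 6.86-fold lower (-2.78 ± 0.13, adjusted p = 0.000224). Dusp1, a phosphatase that ends MAP kinase signals, was at -2.18 and -1.83 against 1.82 and 1.82, 14.2-fold lower, and the nuclear receptor Nr4a1 was at 1.59 and 1.72 against 5.00 and 4.73, 9.25-fold lower. For these 4 genes all dHet values lay below all wt values. The NF-kappaB feedback genes Nfkbia (-2.14 ± 0.10) and Tnfaip3 (-2.06 ± 0.12) were lower too. Only the wt cells were sorted directly from tissue, per the labels, so handling and the other differences between the groups cannot be told apart for these genes.

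**Figure D4:**
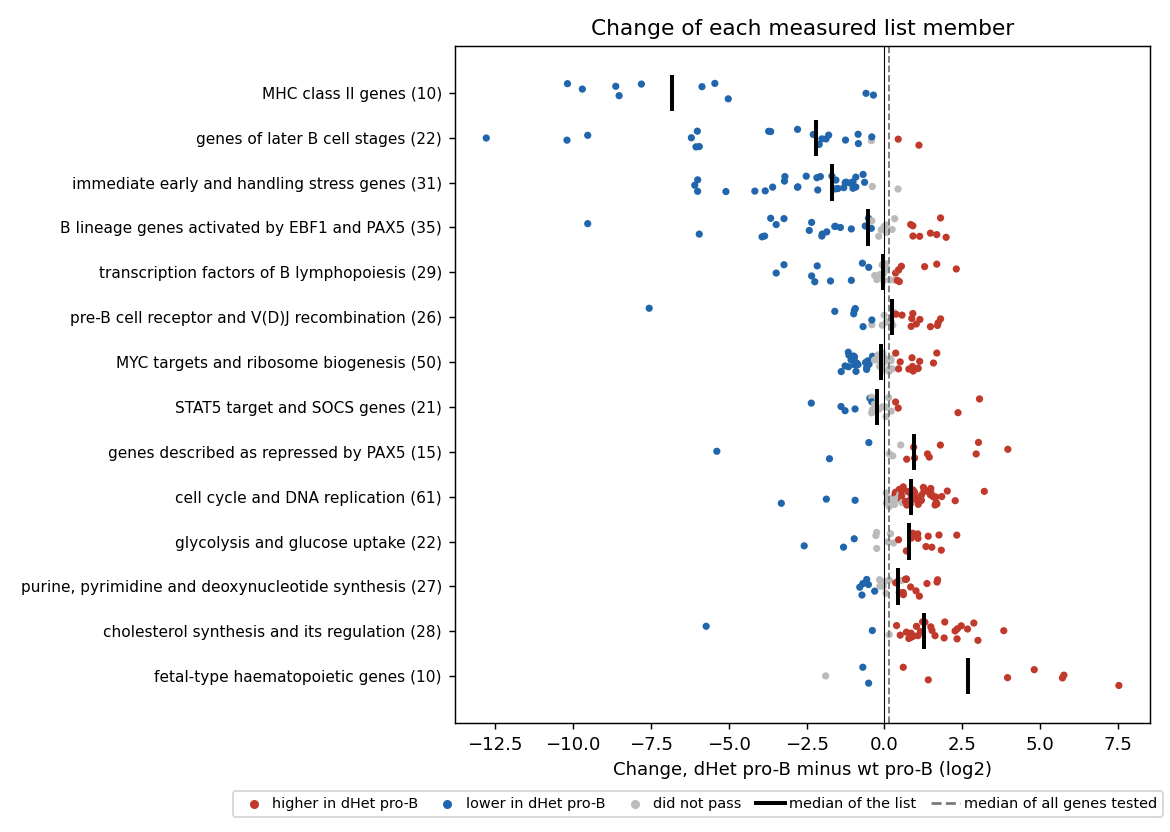
Change of every measured member of 14 gene lists (horizontal axis, log2, dHet pro-B minus wt pro-B), 1 point per gene with the number measured in brackets, red higher, blue lower and grey not past the threshold. Solid bars are list medians and the dashed line is the median of all genes tested at 0.13, with all 10 MHC class II genes to its left and 25 of 28 cholesterol genes higher.

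Of 15 measured receptors for the growth factors of the culture and signalling genes below them, 7 were higher, 2 lower and 6 did not pass, against 36.3% higher and 27.4% lower among all genes. Their median of 0.52 was 0.87 under array median scaling and 0.27 with normexp background correction or the deposited values. Kit, the receptor of SCF and the antigen by which the fetal liver cells were selected, was at 3.38 and 3.24 on the dHet arrays and at -1.47 and -1.62 on the wt arrays, 29.0-fold higher (4.86 ± 0.11, adjusted p = 7.01e-05). Il7r, the IL-7 receptor chain, was at 5.41 and 5.28 against 4.36 and 4.30, 2.02-fold higher (1.01 ± 0.10, adjusted p = 0.00154), with a further probe at 1.03 and another that did not pass (-0.14). Flt3 was at -1.90 and -1.38 against -2.09 and -2.22 and did not pass (0.52, 95% interval -0.01 to 1.05). Jak3, the kinase bound to the IL-7 receptor, was at 3.02 and 2.94 against 0.89 and 0.95, 4.17-fold higher (2.06 ± 0.10, adjusted p = 0.000228). Stat5a (0.89 ± 0.12) and Stat5b (0.78 ± 0.11), which carry the signal to the nucleus, rose as well.

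Targets of STAT5 moved in both directions, with 4 higher and 6 lower of 21, against 36.3% and 27.4% of all genes. Their median of -0.25 became 0.11 under array median scaling. The feedback inhibitors Socs2 and Cish rose the most. Socs2 was at 3.23 and 3.21 against 0.14 and 0.21, 8.28-fold higher (3.05 ± 0.09, adjusted p = 0.000102), and Cish at 2.29 and 2.44 against 0.07 and -0.06, 5.13-fold higher (2.36 ± 0.11, adjusted p = 0.000232). Pim2, a survival kinase, fell by 2.35 ± 0.13, and Ccnd2, a cyclin of G1, fell by 0.94 ± 0.10. Myc was at -0.24 and 0.26 in dHet and 1.22 and 1.33 in wt cells, 2.40-fold lower (-1.26 ± 0.19, adjusted p = 0.00519). Its relative Mycn was at -0.67 and -0.36 against -1.67 and -1.63, 2.19-fold higher (1.13 ± 0.14, adjusted p = 0.0027). The survival genes Bcl2 (-0.41), Bcl2l1 (-0.18) and Mcl1 (-0.06) did not pass. In the BCL2 family the pro-apoptotic Bcl2l11, which encodes BIM, was higher (1.15 ± 0.10) and Bid lower (-1.11 ± 0.09), with 5 higher and 2 lower of 14 and a median of 0.01 that became -0.18 when arrays were scaled on detected probes.

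Of 15 measured genes described as repressed by PAX5, 9 were higher and 3 lower, against 36.3% and 27.4% of all genes. The median of 0.94 was 0.59 with normexp background correction and 0.61 with the deposited values. Ramp1, a receptor activity modifying protein, was at 5.31 and 5.21 on the dHet arrays and at 1.18 and 1.43 on the wt arrays, 15.6-fold higher (3.96 ± 0.13, adjusted p = 0.000112). Ccl3, a chemokine (2.94 ± 0.13), Ly6a, the stem cell antigen Sca-1 (1.79 ± 0.15), and Notch1, the receptor that directs T cell fate (0.71 ± 0.12), rose too. Cd33, a myeloid lectin, was at least 3.66-fold higher. Cd7, a T lymphoid surface protein, went the other way, at -2.79 and -3.51 against 2.19 and 2.27, 41.6-fold lower (-5.38 ± 0.26, adjusted p = 0.000243). Csf1r (-0.50, with another probe at -2.72) and Ctsw, well above background on no dHet array, were the other lower members. Neither Csf1r nor Ctsw passed with normexp background correction or the deposited values. Stem and progenitor genes had 10 higher and 5 lower of 17 measured, against the same 36.3% and 27.4% of all genes. Of these 5, 3 were well above background on no dHet array and add no support to the count. Egfl7 (1.93 ± 0.14), Mycn and Cd93 (1.12 ± 0.11) rose, while Hoxa9, a homeobox gene of stem cells, was at least 2.57-fold lower.

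Adhesion and chemokine genes differed strongly gene by gene, with 15 higher and 10 lower of 32, against 36.3% and 27.4% of all genes. Of these 10, 4 were well above background on no dHet array and add no support to the count. Ccl9, a chemokine, had the largest increase among genes detected on all 4 arrays, at 5.73 and 5.58 in dHet and -3.54 and -2.78 in wt cells, 450-fold higher (8.81 ± 0.27, adjusted p = 0.000101). Itga6 (2.03 ± 0.14) and Itga4, the alpha4 integrin that holds B progenitors to marrow stroma (2.15 ± 0.12), rose. Further Itga4 probes rose by 2.33 and 2.19, but 3 others did not pass. Itgb7, which pairs with alpha4 for homing to the gut, was at -4.29 and -4.05 against 3.11 and 2.77, at least 126-fold lower (adjusted p = 7.01e-05). Cxcr4, the receptor that retains B progenitors in the marrow, fell by 1.05 ± 0.11.

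Most cell cycle genes measured were higher in dHet pro-B cells. Of 61 measured, 47 were higher and 3 lower, against 36.3% and 27.4% of all genes, with a median of 0.85, and the counts were 58 and 3 under array median scaling and 41 and 3 under scaling on detected probes. Cdk6, the G1 kinase of haematopoietic cells, was at 6.22 and 6.27 on the dHet arrays and at 2.99 and 3.10 on the wt arrays, 9.21-fold higher (3.20 ± 0.10, adjusted p = 0.000102). Ube2c, an enzyme of mitotic protein destruction, was at 4.41 and 4.35 against 1.77 and 2.45, 4.83-fold higher (2.27 ± 0.25, adjusted p = 0.00193). The mitotic kinases Plk1 (1.84 ± 0.24) and Cdk1 (1.64 ± 0.25) and the cyclin Ccnb1 (2.02 ± 0.19) rose, and wt array 2 lay above wt array 1 for each of them. Mki67, the proliferation antigen, was at 6.06 and 6.07 against 4.97 and 5.35 (0.91 ± 0.16, adjusted p = 0.00746). The 3 lower genes were Ccnd1 (at least 7.06-fold), Ccnd2 and E2f2, an activating E2F, at 5.11 and 5.16 against 7.06 and 6.95 (-1.87 ± 0.10, adjusted p = 0.000308). Among CDK inhibitors 5 of 10 were higher and 3 lower, against the same 36.3% and 27.4% of all genes. Cdkn2a, whose locus encodes p16 and p19Arf, was at -1.32 and -1.01 against -6.07 and -6.10, not well above background in wt cells, at least 7.68-fold higher (adjusted p = 8.4e-05). Cdkn1a, the p21 gene, rose by 0.81 ± 0.11, and the retinoblastoma gene Rb1 fell by 0.68 ± 0.09. Genes of the p53 response had 9 higher and 7 lower of 19, read against the same shares. Among them Zmat3 was higher (2.17 ± 0.15) and Plk2 lower (-1.20 ± 0.15).

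Genes of cholesterol synthesis were mostly higher. Of 28 measured members 25 were higher and 2 lower, against 36.3% and 27.4% of all genes, with a median of 1.26 that was 1.61 under array median scaling and 1.07 under scaling on detected probes. Sqle, a rate-limiting oxygenase of the pathway, was at 2.26 and 2.26 on the dHet arrays and at -0.38 and -1.11 on the wt arrays, 8.0-fold higher (3.0 ± 0.26, adjusted p = 0.00102). Cyp51, which demethylates lanosterol, was at 0.42 and 0.39 against -2.31 and -2.21, 6.35-fold higher (2.67 ± 0.10, adjusted p = 0.000137). Hmgcs1 and Idi1, 2 early enzymes whose promoters are shown above, were at 3.98 and 3.89 against 1.99 and 2.06, and at 2.23 and 2.26 against -0.16 and 0.13. Both changes passed, 3.77-fold for Hmgcs1 (1.91 ± 0.10, adjusted p = 0.000279) and 4.81-fold for Idi1 (2.27 ± 0.13, adjusted p = 0.000381), and for all 4 enzymes the groups were apart. Srebf2, the factor that activates the pathway, rose by 1.49 ± 0.09. Abca1, which exports cholesterol and is induced by sterol excess, was at -5.64 and -5.75 against 0.04 and 0.01, at least 16.9-fold lower (adjusted p = 5.51e-05), and Mylip, a ubiquitin ligase induced by sterols, was the other lower gene (-0.39 ± 0.12). Mylip did not pass without dHet array 2 (-0.29), without wt array 1 (-0.36) or without wt array 2 (-0.42), nor under array median scaling (-0.04).

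Other metabolic lists were mixed, and the count of each is read against 36.3% higher and 27.4% lower among all genes. Glycolysis had 13 higher and 3 lower of 22. Its median of 0.78 was 0.42 with quantile normalization and 0.43 with the deposited values. Pgk1, an enzyme that makes ATP, was at 5.66 and 5.63 against 3.72 and 3.93 (1.82 ± 0.12, adjusted p = 0.000465). Pdk1, a pyruvate dehydrogenase kinase, rose by 2.32 ± 0.13. Ldhb, a lactate dehydrogenase subunit, fell by 2.58 ± 0.49 (adjusted p = 0.01, and 0.0645 or 0.0633 without wt array 1 or 2). The glucose transporter Slc2a1 did not pass (-0.28). Hypoxia-induced genes had 7 higher, among them Vegfa (1.37 ± 0.15), and 3 lower of 13, among them Adm (at least 23.6-fold). Nucleotide synthesis had 14 higher and 6 lower of 27, led by Impdh1, which commits purines to GTP (1.70 ± 0.13), and Paics (1.69 ± 0.11). Folate metabolism had 10 higher and 3 lower of 21, led by Ahcy, which clears the methylation by-product S-adenosylhomocysteine (1.69 ± 0.10). MYC targets and ribosome biogenesis had 13 higher and 19 lower of 50, with a median of -0.12 that became 0.23 under array median scaling. Its members Npm1 (1.57 ± 0.11), a nucleolar chaperone, and Srm (-1.39 ± 0.10), the spermidine synthase, moved in opposite directions.

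The amino acid response list split by gene. Asns was at 1.95 and 1.80 on the dHet arrays and at -1.23 and -1.30 on the wt arrays, 8.80-fold higher (3.14 ± 0.11, adjusted p = 0.000118). Pck2, a mitochondrial enzyme of gluconeogenesis, was at 5.89 and 5.88 against 2.80 and 2.93, 8.09-fold higher, and Trib3, a pseudokinase induced by amino acid shortage, rose by 2.84 ± 0.09. In contrast Atf4, the factor that activates these genes, was at 1.69 and 1.75 against 3.19 and 3.10, 2.69-fold lower (-1.42 ± 0.10, adjusted p = 0.000568). Ppp1r15a, the phosphatase subunit that ends the response, was 7.97-fold lower (-3.0 ± 0.10), Ddit3, which encodes CHOP, fell by 1.24 ± 0.14, and Phgdh, the first enzyme of serine synthesis, fell by 0.94 ± 0.10. Of 34 measured, 10 were higher and 12 lower, against 36.3% and 27.4% of all genes. The median of 0.06 became -0.13 under scaling on detected probes.

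Genes of fetal-type haematopoiesis changed in both directions. Of 20 on the list 10 were measured, of which 7 were higher, 2 lower and 1 did not pass. Among all genes 36.3% were higher and 27.4% lower. Lin28b, which holds B progenitors in their fetal state, was at -0.66 and -0.48 on the dHet arrays and at -6.20 and -6.36 on the wt arrays, at least 11.6-fold higher (adjusted p = 6.59e-05). Igf2bp3, an RNA-binding protein downstream of LIN28B, was at 3.05 and 2.87 against -1.01 and -0.97, 15.5-fold higher (3.95 ± 0.11, adjusted p = 8.35e-05). Igf2, a fetal growth factor, was at 1.08 and 1.5 against -6.16 and -6.30, at least 42.2-fold higher, and the imprinted genes H19 and Grb10 were at least 11.1-fold and 23.4-fold higher. None of Igf2, H19, Lin28b and Grb10 was well above background on a wt array, so they entered the test through the dHet arrays alone and add no support to the count. Hmga1 rose by 1.41 ± 0.12, whereas Arid3a, another factor of fetal B lymphopoiesis, fell by 0.69 ± 0.11. Lin28a, Igf2bp1 and Dlk1 were well above background in neither group.

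Interferon-stimulated genes had 9 higher and 14 lower of 30, against 36.3% and 27.4% of all genes. Their median of -0.27 became 0.08 under array median scaling. Ifitm3, an antiviral membrane protein, rose by 1.95 ± 0.11, and Zbp1, a nucleic acid sensor, fell by 2.61 ± 0.29. FOXO targets had 10 higher and 6 lower of 21, read against the same shares. Sesn1 changed by 1.42 ± 0.11 and Btg1 by -1.46 ± 0.16. The list median of 0.30 became -0.01 with quantile normalization. Among genes detected on all arrays, the largest increases after that of Ccl9 were those of Ifitm1, Septin8 and Fcgr3. Ifitm1, a relative of Ifitm3, was at 5.43 and 5.24 against -0.88 and -1.0, 77.2-fold higher (6.27 ± 0.12, adjusted p = 5.72e-05). Septin8, a cytoskeletal GTPase, was 52.6-fold higher, and Fcgr3 was at 2.90 and 2.75 against -2.97 and -2.27, 43.6-fold higher. Mt1, a metallothionein, was at 5.01 and 4.72 against -0.10 and -0.34, 34.0-fold higher, and Kynu, an enzyme of tryptophan breakdown, 35.9-fold higher.

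Nyx, Ffar2, Kit, Adgrg3, Cst7 and Dtx4 completed the 12 largest measured increases, with changes between 4.54 (Dtx4) and 5.28 (Nyx). After Cd74, S100a9, H2-Ab1 and Polm, the largest measured decreases were those of Trib1, a pseudokinase (-6.41 ± 0.15), H2-Q5 (-6.29 ± 0.10) and Dtx1, a regulator and target of Notch signalling (-6.10 ± 0.14). Neurl3 (-5.96), Bcl3, an IkappaB relative (-5.86), Casp4, an inflammatory caspase (-5.85), and Ets2 (-5.72) followed. H2 probes share sequence between family members, which limits the assignment to H2-Q5. Among genes not well above background in 1 group, Slco1b2, an organic anion transporter, was at least 106-fold higher, followed by Rtkn (67.1-fold), Pgf, a placental growth factor (64.0-fold), and Magi1 (49.5-fold), all as lower bounds. Ctsh, a lysosomal protease, was at least 481-fold lower, and Ly86, the partner of the receptor CD180 (at least 474-fold), and Col5a3 (at least 266-fold) were not well above background in dHet cells either.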

How the data were processed

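Total RNA was labelled with Cy3 and hybridised to one-colour Agilent arrays, 1 array per sample. Per the file headers, the deposited intensity values were extracted with Feature Extraction 10.5.1.1. The submitters' processing notes give version 9.1 instead. The software had subtracted background and a spatial trend within each array. The log2 values deposited by the authors, whose centring and floor are not given in the sources used here, served as an alternative. On these 4 arrays they correlated with the processed signal at 0.927 to 0.943, and their median was 6.85 on each.

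Control spots and outliers were left out, spots of a probe were averaged, and the log2 processed signal was set relative to the array's own 75th percentile. Probes well above background on both arrays of at least 1 group were kept, 21619 of 41174. Normalization of this kind fixes the percentile, so an unequal total amount of RNA per cell is not measured. RefSeq tables of GRCm38.p6 named 28561 probes through an accession, 5119 through a symbol and 327 through a synonym, while 7167 probes retained the array's own name. Per the file headers, probe positions refer to mm9. A gene is its brightest kept probe, and of 3113 called genes with several probes 319 had a second probe that passed the other way.

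The 2 groups were fitted with limma 3.58.1 in R 4.3.3 (with the package data.table at version 1.17.8), with Benjamini-Hochberg adjustment over all genes tested and a threshold of 0.05. Tables were handled in Python 3.11.15 with pandas 2.3.3 and numpy 2.4.6. Tested on simulated data over 13965 genes, the fit recovered 43 of 100 genes changed by 1 on the log2 scale. It recovered 80 of 100 changed by 2, and there were 3 false calls. Only 100 genes per size were changed there, whereas 63.6% of genes were called between the 2 groups. Recovery and false calls at so large a share of changed genes was not tested. With 2 arrays a group, the number of arrays limits the precision. A gene not well above background on any array of its lower group is given as a bound. The bound sets the higher group's mean against each array's dimmest level well above background, or the measured level where that was higher. Some probes not well above background lay above that dimmest level, so the bounds are approximate.

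The comparison, the gene lists and the alternatives were chosen with earlier results of these data known. Named were the 12 largest measured changes and 8 largest bounds per direction, the altered genes, and up to 5 members per list and direction, while further list members were named after their values were seen. Some members of these lists and rankings are not reported here.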

Additional observations from a re-analysis of the deposited data

How the results depend on the processing

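Of 277 named genes with a called change, 201 kept the call and direction in every alternative in which they were tested, out of 16 alternatives. Genes higher and lower numbered 7829 and 2743 with array median scaling, 2415 and 2133 with all 10 arrays in 1 fit, and 7138 and 5895 over every kept probe. The fit of all 10 arrays pools the spread of 5 groups, and under it 56 named genes lost their call, among them Pax5, Dntt, Ccnd2, Cdkn1a, Hoxa9, Mzb1 and Cdh5. Leaving out 1 array gave 3959 to 4344 higher and 3012 to 3533 lower. Other settings gave 3737 to 5289 higher and 2760 to 4697 lower. The highest upward count came with undetected arrays raised to the dimmest detected level where they lay below it, an alternative chosen after seeing the data. Deviations of same-numbered arrays from their group means had a correlation of 0.0995 over 13965 genes, and these arrays share only a number. With the replicate block 4868 genes were higher and 3758 lower. The direction reversed for Tcf12 (-0.20), Il2ra (-0.31), Erap1 (-0.51) and Pecam1 (-0.32) with the mean of a gene's probes, whose probes disagree, and for Blnk (-0.073) with the deposited values, where the cause was not tested. The 4 arrays of 2 groups limit every result, and genes near background have only bounds.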
